A study of Homo sapiens with 12 samples.

Results

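Urokinase, its receptor and the proteases linked to it were described in RD cells, an established human cell line of embryonal rhabdomyosarcoma, a sarcoma with features of developing skeletal muscle. The 9 genes were the plasminogen activators PLAU and PLAT, the urokinase receptor PLAUR, the serpin inhibitor SERPINE2 and the cathepsins CTSB, CTSD, CTSK, CTSL and CTSZ. They were chosen by name from the 61552 gene identifiers listed for each library, with the results of the EHMT1 knockdown in view, so their differences between the groups are given as a description and support nothing. The knockdown cells had received an siRNA against EHMT1 (n = 3 libraries) and the control cells a scrambled siRNA (n = 3 libraries), both delivered with Lipofectamine RNAiMAX, and RNA was collected after 48 h. All cells carried the label FN-RMS, fusion-negative rhabdomyosarcoma, as their genotype. EHMT1, also named GLP, is a histone methyltransferase that acts on lysine 9 of histone H3. A limit of the model is that it is 1 cell line; the siRNA sequences and whether the replicates were separate cultures are not given in the sources used here. The series has 12 libraries, and the 6 that belong to its SOX8 knockdown were not used.

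Urokinase (uPA, from PLAU) and the tissue-type activator (tPA, from PLAT) are secreted serine proteases that cut plasminogen into plasmin, which degrades fibrin and pericellular matrix. The receptor uPAR, from PLAUR, is a GPI-anchored protein that holds urokinase at the cell surface, and the serpin protease nexin-1 (SERPINE2) traps the activators in covalent complexes. Cathepsins are proteases of the lysosome that tumour cells can also secrete: CTSB, CTSK, CTSL and CTSZ are cysteine proteases, and CTSD is an aspartic protease. Cathepsins B and L can cut pro-urokinase into its active form, which ties the cathepsins to the plasminogen system.

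The start regions of members that the results turn on are shown first, because PLAU and PLAUR, a ligand and its receptor, were both higher with EHMT1 siRNA, while CTSD, unlike CTSB and CTSL, was not. RefSeq on build GRCh38.p14 gave windows of 300 bases, 250 before and 50 after a gene start, for 6 of the 9 members, 8 windows in all. PLAT, CTSB and CTSK had no window, so the start regions of CTSD and CTSB could not be compared. Each window was searched on both strands for the AP-1 word TGANTCA, the E-box CACGTG, its longer form TCACGTG that belongs to the element of lysosomal genes, and the GC box GGGCGG. The word TCACGTG contains CACGTG, so those counts overlap. In the lines below, which run 5′ to 3′, the capitals mark the AP-1 word in PLAUR (chr19:43670120-43670419, minus strand), the GC boxes in PLAU (chr10:73910882-73911181, plus strand) and the E-box in CTSD (chr11:1763878-1764177, minus strand).
PLAUR: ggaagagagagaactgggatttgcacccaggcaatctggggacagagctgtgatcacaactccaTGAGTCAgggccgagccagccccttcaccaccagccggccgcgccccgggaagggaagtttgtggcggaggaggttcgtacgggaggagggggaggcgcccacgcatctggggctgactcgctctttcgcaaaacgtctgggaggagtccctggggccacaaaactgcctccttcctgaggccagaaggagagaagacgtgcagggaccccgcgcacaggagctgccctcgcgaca
PLAU: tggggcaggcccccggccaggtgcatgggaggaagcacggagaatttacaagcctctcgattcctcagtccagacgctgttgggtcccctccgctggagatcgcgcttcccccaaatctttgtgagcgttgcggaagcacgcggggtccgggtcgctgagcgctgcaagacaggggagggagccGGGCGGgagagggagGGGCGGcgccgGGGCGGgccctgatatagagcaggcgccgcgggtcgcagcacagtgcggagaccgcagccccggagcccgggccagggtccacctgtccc
CTSD: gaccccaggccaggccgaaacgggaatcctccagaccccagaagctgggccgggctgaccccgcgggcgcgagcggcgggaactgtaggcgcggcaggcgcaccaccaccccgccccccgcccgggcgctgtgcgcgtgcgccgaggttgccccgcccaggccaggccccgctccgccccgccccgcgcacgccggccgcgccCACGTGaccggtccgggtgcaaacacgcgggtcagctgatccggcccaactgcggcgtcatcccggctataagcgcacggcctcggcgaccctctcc

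The PLAUR window held 1 AP-1 word, which starts 186 bases before the gene start. Of all 35116 windows of this length, 7.71% hold that word, and no other window of the members did. The PLAU window held 3 GC boxes, starting 66, 51 and 40 bases before the start, a word found in 45% of all windows; the CTSD window held 5, at 140, 133, 98, 77 and 72 bases, and the PLAUR window none. A second PLAU window, at an upstream start, held none of the 4 words. The E-box of CTSD starts 47 bases before the gene start and is followed by an A, so it is also a match to TCACGTG on the other strand; 7.26% of all windows hold CACGTG and 3.71% hold TCACGTG. Of the other windows, 1 of the SERPINE2 pair also held TCACGTG, both of that pair held GC boxes, and those of CTSL and CTSZ held GC boxes alone. These matches describe the letters of the windows and say nothing of a factor being bound in these cells.

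EHMT1 was checked first because it is the target of the siRNA. Its level was 53.2, 54.4 and 57.6 CPM (the gene's counts relative to the library total, scaled with TMM factors) with EHMT1 siRNA, against 131, 156 and 130.1 CPM with scrambled siRNA. The groups did not overlap, and 39.6% of the transcript was left (log2 fold change -1.34, SE 0.072, edgeR adjusted p = 9.13e-09). With p = 0.1, the exact permutation test (two-sided) on log2 CPM was at its lower limit for groups of 3. The libraries held 40639655 to 42098426 gene counts with EHMT1 siRNA and 41095515 to 47258481 with scrambled siRNA. Scrambled replicate 2 stood apart, at 36.4 on the first principal component, against 9.16 and 16 for the other scrambled and -21.6 to -19.6 for the EHMT1 siRNA libraries. Of the 8 muscle markers, 7 were tested and 1, PAX7, rose, where 5.81% of all genes tested rose and 6.54% fell. MYOD1, DES and CDH15 averaged 155, 299 and 103 CPM with EHMT1 siRNA and 151, 311 and 106 CPM with scrambled siRNA. MYOG averaged 44.9 and 49.5 CPM. CHRNA1 averaged 716 and 638 CPM, with all EHMT1 siRNA libraries higher. MYH3 averaged 9.77 and 11.7 CPM, with all of them lower. These 2 genes lay near the threshold of 0.05 and did not pass it (edgeR adjusted p = 0.0566 each). Of all genes tested, 15.4% had every EHMT1 siRNA library higher and 15.5% had every one lower. MYF5 was at 0 counts in all 6 libraries. Macrophages and osteoclasts are rich in cathepsins. The 8 macrophage markers summed to 1.28 to 1.78 CPM with EHMT1 siRNA and 1.22 to 1.83 CPM with scrambled siRNA, with CD163, TYROBP and AIF1 at 0 counts. The 6 osteoclast markers summed to 1.73 to 2.37 CPM with EHMT1 siRNA and 1.3 to 1.98 CPM with scrambled siRNA, with ATP6V0D2 at 0 counts. The 4 endothelial markers summed to 0.434 to 0.852 and 0.283 to 0.676 CPM. The 5 epithelial markers summed to 75.6 to 80.2 and 70.5 to 81.5 CPM, most of it from KRT18, with KRT19 at 0 counts. In bulk RNA, a change in the number of cells of a type and a change in RNA per cell cannot be told apart.

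Among the members, 6 of 9 were higher with EHMT1 siRNA at the edgeR threshold (adjusted p under 0.05) and 0 were lower, where 5.81% of the 18646 genes tested rose and 6.54% fell, 12.4% in all. The 6 were PLAU, PLAUR, PLAT, SERPINE2, CTSB and CTSL, and the 3 not past the threshold were CTSD, CTSK and CTSZ. All 9 passed the filter on low counts. In the same 6 members every EHMT1 siRNA library lay above every scrambled library, a pattern seen in 15.4% of all genes tested. CTSD was the reverse, with every EHMT1 siRNA library below every scrambled one, as in 15.5% of genes. The members' median log2 fold change was 0.32, against 0.00 over all genes tested. Because the same contrast chose the members, nothing is read from these counts.

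**Figure D1:**
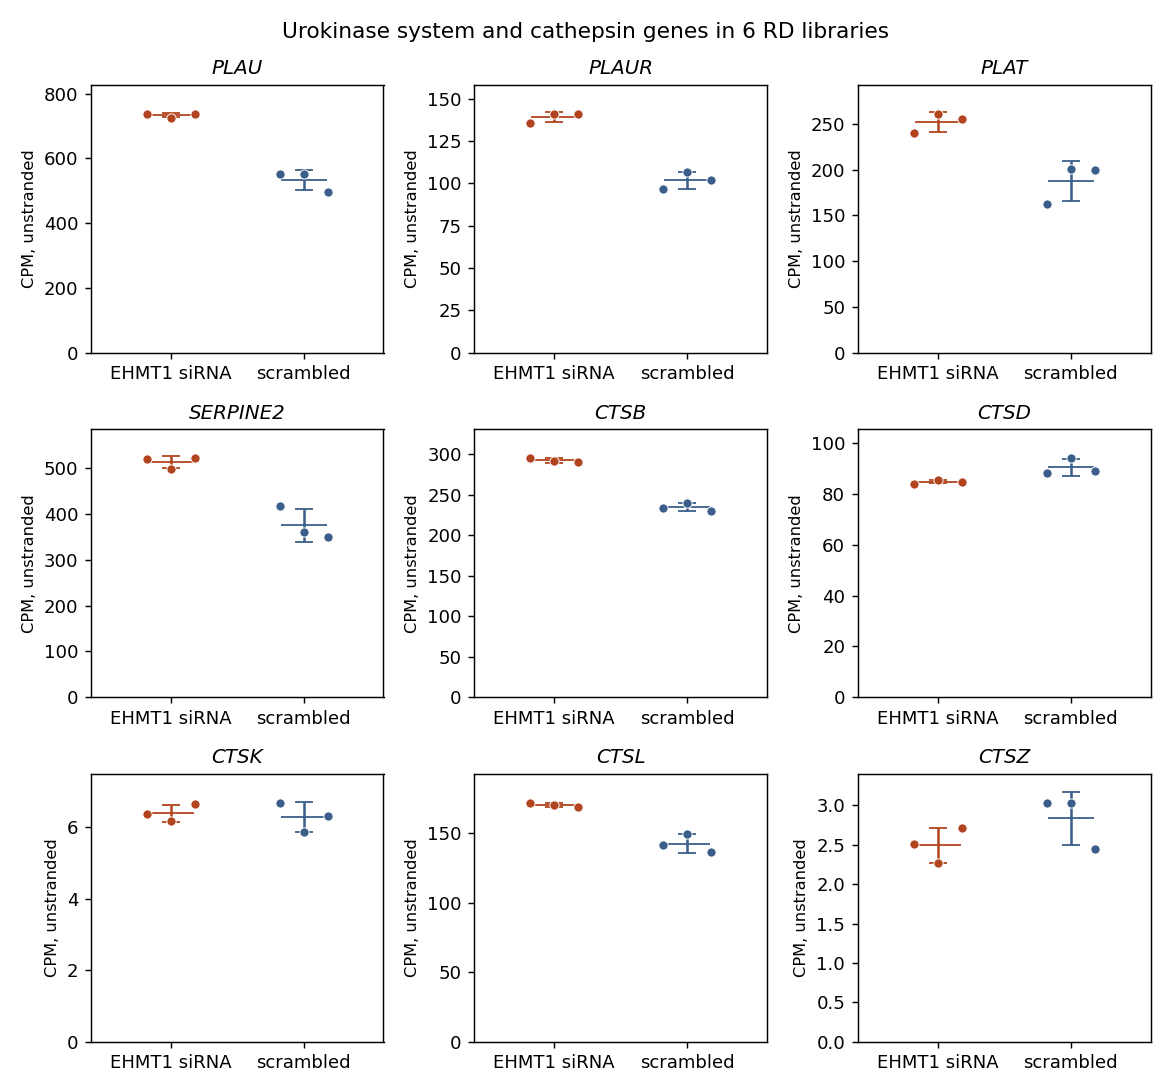
CPM of the 9 genes in each library (points, unstranded counts), with the mean (line) and SD (bar) of 3 EHMT1 siRNA and 3 scrambled libraries; each axis starts at 0. In PLAU, PLAUR, PLAT, SERPINE2, CTSB and CTSL the EHMT1 siRNA points lie above all scrambled points, CTSD lies slightly below, and CTSK and CTSZ overlap.

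PLAU was the most abundant member. It had 739, 726 and 736 CPM with EHMT1 siRNA, against 551, 552.5 and 497 CPM with scrambled siRNA. The EHMT1 siRNA libraries lay within a narrow band above all scrambled ones, and scrambled replicate 3 was the lowest. The means were 734 ± 6.64 CPM with EHMT1 siRNA and 534 ± 31.6 CPM with scrambled siRNA (SD, n = 3 each), a log2 fold change of 0.46 (SE 0.058). PLAU stood at the 99.1 percentile of average abundance among genes tested.

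Its receptor gene PLAUR differed by nearly the same factor. PLAUR had 136, 141 and 141 CPM with EHMT1 siRNA, against 96.7, 107 and 102 CPM with scrambled siRNA. The ranges did not overlap, and the log2 fold change was 0.45 (SE 0.057). The means were 139 ± 3.03 CPM with EHMT1 siRNA and 102 ± 5.08 CPM with scrambled siRNA (SD, n = 3 each).

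PLAT, the tissue-type activator, varied more among the controls than with EHMT1 siRNA, as did every other member. It had 239.9, 261 and 255 CPM with EHMT1 siRNA, against 162, 201 and 199.7 CPM with scrambled siRNA. Scrambled replicate 1 was the lowest library and gave the coefficient of variation of 11.7% in that group, against 4.37% with EHMT1 siRNA. The log2 fold change was 0.43 (SE 0.074), 0.33 without scrambled replicate 1. Here scrambled replicates 2 and 3 lay together, while in PLAU replicates 1 and 2 did.

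SERPINE2, the inhibitor of thrombin, urokinase and tPA, lay higher alongside the activators. It had 521, 499 and 522 CPM with EHMT1 siRNA, against 417, 360.1 and 350 CPM with scrambled siRNA. All EHMT1 siRNA libraries were above scrambled replicate 1, the highest control. The log2 fold change was 0.45 (SE 0.066), 0.53 without scrambled replicate 1. Thus scrambled replicate 1 was the lowest control for PLAT and the highest for SERPINE2.

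Among the cathepsins, CTSB and CTSL, the endopeptidases of broad specificity, were higher by smaller factors and with less spread. CTSB had 295, 292 and 289.8 CPM with EHMT1 siRNA, against 234, 239.6 and 229.6 CPM with scrambled siRNA. Its log2 fold change was 0.32 (SE 0.053), and its coefficient of variation, 0.887% with EHMT1 siRNA and 2.14% with scrambled siRNA, was the lowest of the members in the scrambled group. CTSL had 172, 170.3 and 168.5 CPM with EHMT1 siRNA, against 142, 149.6 and 136 CPM with scrambled siRNA. Its log2 fold change was 0.26 (SE 0.056). CTSL no longer passed the edgeR threshold without EHMT1 siRNA replicate 1 or 2, at log2 fold changes of 0.25 and 0.25, so that 5 members passed in each case.

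CTSD, CTSK and CTSZ did not pass. CTSD, the aspartic protease, had 84.2, 85.5 and 84.9 CPM with EHMT1 siRNA, against 88.4, 94.2 and 88.9 CPM with scrambled siRNA. These groups did not overlap, but the log2 fold change was small at -0.09 (SE 0.056). CTSK, the collagen-cutting protease of osteoclasts, had 6.36, 6.17 and 6.64 CPM with EHMT1 siRNA and 6.69, 5.86 and 6.31 CPM with scrambled siRNA, which overlapped. Its log2 fold change was 0.02 (SE 0.11), and it changed sign without EHMT1 siRNA replicate 3 (-0.01) or scrambled replicate 2 (-0.03). CTSK rested on 256 to 272 reads with EHMT1 siRNA and 234 to 313 with scrambled siRNA; for the 234 reads of scrambled replicate 2 the exact 95% Poisson interval was 205 to 266, which covers counting error only. CTSZ, a carboxypeptidase also called cathepsin X, had 2.51, 2.27 and 2.71 CPM with EHMT1 siRNA and 3.04, 3.03 and 2.45 CPM with scrambled siRNA, a log2 fold change of -0.19 (SE 0.16) with overlapping groups. The values of CTSZ do not measure its transcript well, as the strand counts show.

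The libraries carried strand information, which bears on PLAU and CTSZ because each shares its locus with a gene on the opposite strand. In an unstranded count, a read that touches both genes is set aside as ambiguous. The sense column (column 4 of the deposited tables) held 87.5% to 88.4% of strand-assigned counts with EHMT1 siRNA and 87.1% to 89% with scrambled siRNA. PLAU had 46257 to 49459 sense reads with EHMT1 siRNA and 32796 to 40958 with scrambled siRNA, but only 30125 to 31224 and 21112 to 25785 unstranded ones. The unstranded count was thus 62.8% to 67.3% of the sense count, while for PLAUR, PLAT, SERPINE2, CTSB, CTSD, CTSK and CTSL it was at or above 102%. C10orf55, annotated on the strand opposite to PLAU in GENCODE release 29, had 32 to 52 unstranded reads and 12017 to 19537 reads in the antisense column, reads that run in the direction of PLAU.

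In sense counts PLAU had 1170, 1124 and 1174 CPM with EHMT1 siRNA, against 874, 823.5 and 792.5 CPM with scrambled siRNA. The groups again did not overlap, and the log2 fold change was 0.48 (SE 0.056), close to the unstranded one. The unstranded column therefore understated the level of PLAU and left the difference almost as it was. In sense counts 6 members were higher and 0 lower at the same threshold, where 6.15% of 18725 genes rose and 6.62% fell, 12.8% in all.

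For CTSZ the columns did not give a usable level. Its antisense column held 6351 to 6734 reads with EHMT1 siRNA and 6713 to 8059 with scrambled siRNA, 92.2% to 94.8% of its strand-assigned reads. Its neighbour NELFCD, a subunit of the negative elongation factor, lies on the opposite strand; it had 0 to 2 unstranded reads and 6268 to 7933 sense reads. The sense column of CTSZ held 373 to 481 reads with EHMT1 siRNA and 433 to 567 with scrambled siRNA. The same strand counted for NELFCD, its antisense column, held 361 to 472 and 423 to 548 reads, 5.17% to 7.65% of the strand-assigned reads of NELFCD. The share of reads in the antisense column was 1.6% to 12.5% across PLAU, PLAUR, PLAT, SERPINE2, CTSB, CTSD, CTSK and CTSL. How many of the sense reads of CTSZ come from CTSZ was not tested.

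**Figure D2:**
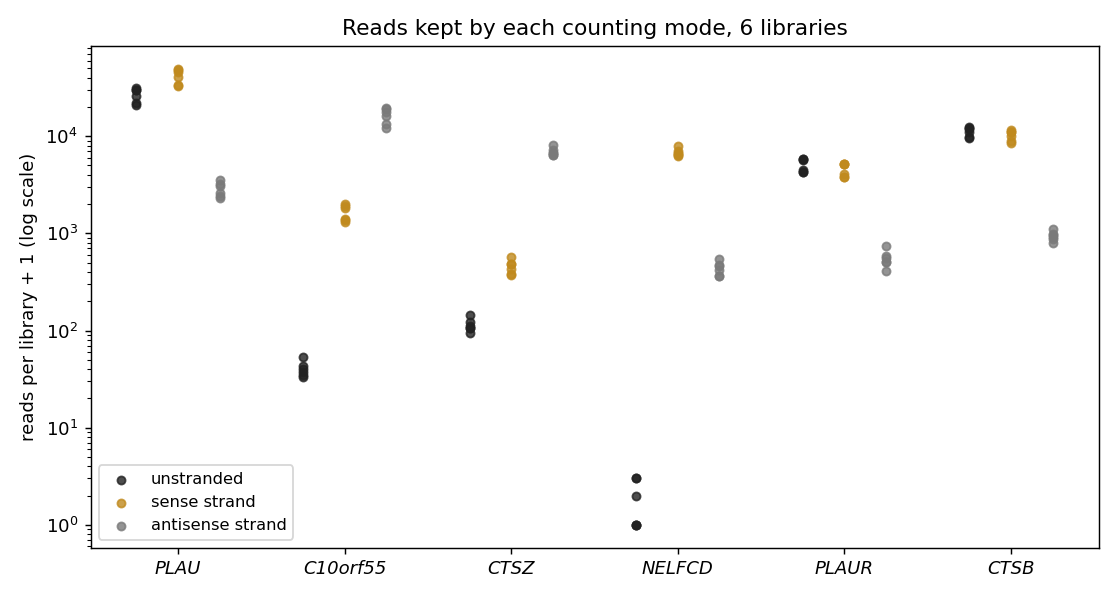
Reads per library plus 1, on a log scale, in the unstranded, sense and antisense columns for PLAU with C10orf55, CTSZ with NELFCD, and PLAUR and CTSB, in all 6 libraries. The unstranded points of PLAU lie below its sense points, those of CTSZ and NELFCD lie far below the reads of the locus, and those of PLAUR and CTSB lie just above their sense points.

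Levels between genes were compared per length, as TPM, which divides sense counts by exonic length and scales each library to the same sum. The exonic length merged all exons annotated for a gene in GENCODE release 29, and can exceed that of a single transcript. It was 2950 bases for PLAU, 2366 for CTSL, 8891 for SERPINE2, 7428 for CTSB, 6618 for PLAT and 4457 for PLAUR. The order of the genes depends on these lengths. Which transcripts were present was not tested. PLAU led at 1484 ± 29.8 TPM with EHMT1 siRNA and 1054 ± 54.9 TPM with scrambled siRNA (SD, n = 3 each). CTSL followed among the members at 257 ± 1.90 and 212 ± 3.68 TPM, and SERPINE2 at 209 ± 5.14 and 149.9 ± 16.8 TPM. CTSB stood at 137 ± 1.03 TPM with EHMT1 siRNA and 108 ± 2.17 TPM with scrambled siRNA. With scrambled siRNA the order went on with CTSD at 100.9 to 102.9 TPM, PLAT at 84.3 to 106.2 TPM and PLAUR at 74.2 to 78.1 TPM. CTSD and PLAT overlapped there, and the highest PLAT library also reached into the range of CTSB, 105.6 to 109.7 TPM. The other neighbours in the order from PLAU to PLAUR did not overlap. With EHMT1 siRNA PLAT, at 124 to 136 TPM, and PLAUR, at 103 to 108 TPM, both lay above CTSD, at 95.4 to 99.3 TPM. CTSK stood at 12.5 ± 0.535 TPM with EHMT1 siRNA and 12.1 ± 1.16 TPM with scrambled siRNA. CTSZ was listed at 16.4 to 21.8 TPM with EHMT1 siRNA and 18.9 to 25.3 TPM with scrambled siRNA. From unstranded counts CTSZ averaged 4.66 TPM with EHMT1 siRNA and 5.22 TPM with scrambled siRNA, below CTSK at 12.9 and 12.5 TPM, so the order of CTSZ and CTSK is not known.

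**Figure D3:**
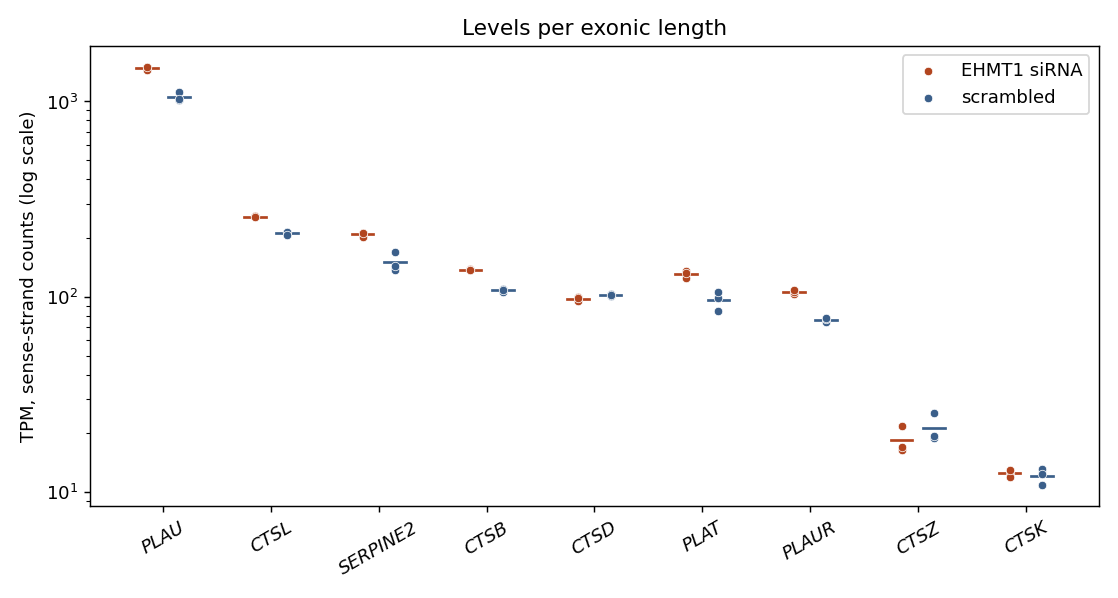
TPM from sense counts on a log scale for the 9 genes in each library (points) with the group mean (line), ordered by the mean of the scrambled libraries. PLAU lies at 1012 to 1504 TPM, and CTSK lies at 10.9 to 13.1 TPM.

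The proportions of PLAU to PLAUR and of PLAU to PLAT changed less than the levels of these genes. Per length, PLAU exceeded PLAUR by 14.5-, 13.6- and 13.9-fold with EHMT1 siRNA and by 15-, 13.1- and 13.2-fold with scrambled siRNA. PLAU exceeded PLAT, the other activator, by 12-, 10.7- and 11.3-fold with EHMT1 siRNA and by 13.2-, 10.3- and 9.72-fold with scrambled siRNA. Both ratios overlapped between the groups. In the cathepsins the proportions did separate. CTSB over CTSD was 1.45, 1.38 and 1.39 with EHMT1 siRNA and 1.09, 1.03 and 1.06 with scrambled siRNA. CTSB and CTSL together, over the cysteine protease inhibitors CST3 and CSTB, were at 2.64, 2.69 and 2.54 with EHMT1 siRNA and 2.39, 2.35 and 2.14 with scrambled siRNA. These ratios are descriptions of RNA and use the same contrast that chose the members. Their size depends on the merged exonic lengths, which were the same for both groups.

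**Figure D4:**
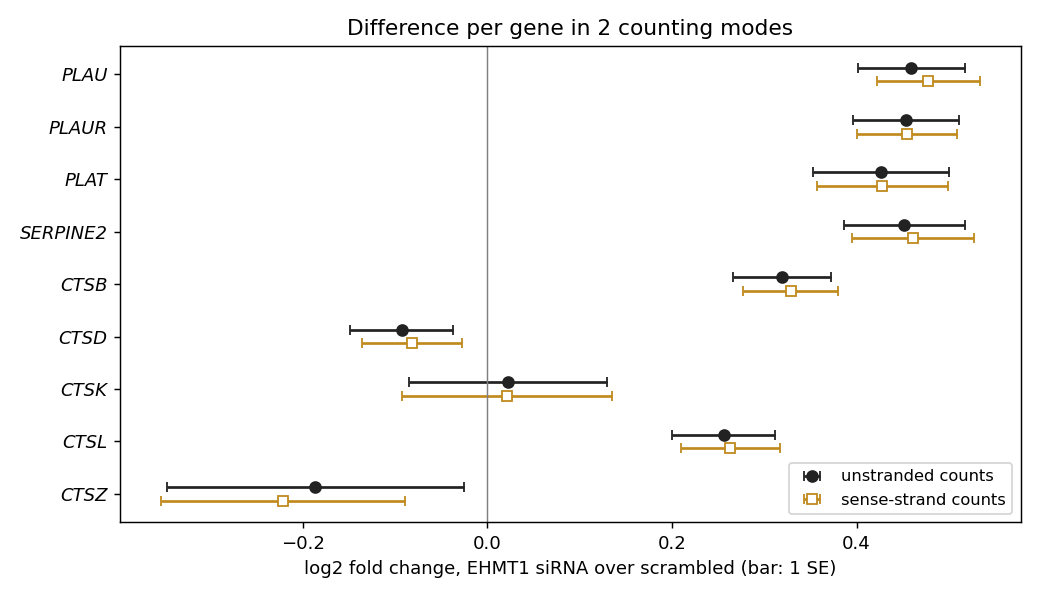
Log2 fold change of each gene, EHMT1 siRNA over scrambled, with 1 SE, from unstranded counts (filled circles) and sense-strand counts (open squares). The 2 counting modes give nearly the same values, 0.46 and 0.48 for PLAU, and the bars of CTSK span 0.

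Of 25 other genes listed for the plasminogen system, 17 were tested, 1 rose, 3 fell and 13 did not pass, where 5.81% of all genes tested rose and 6.54% fell. Their median log2 fold change was 0.03, against 0.00 over all genes. ITGA3, the integrin alpha 3 chain that can bind uPAR, rose by 0.69 on the log2 scale (SE 0.071, edgeR adjusted p = 1.15e-05). This call held with any 1 library left out. In sense counts 2 genes of the list rose. ITGB1, the beta 1 partner of that chain, fell, with a log2 fold change of -0.27 (SE 0.061, edgeR adjusted p = 0.00719; 0.0593 without EHMT1 siRNA replicate 3). ENO1, a glycolytic enzyme that also acts as a plasminogen receptor at the cell surface, had -0.21 (edgeR adjusted p = 0.0201), and MRC2, a collagen receptor that associates with uPAR, had -0.22 (edgeR adjusted p = 0.0417; named after its value was seen). Without EHMT1 siRNA replicate 1, 2 or 3, 1, 1 and 0 genes of this list fell, and without scrambled replicate 1, 2 or 3, 2, 3 and 3 rose. ENO1 lost its call when EHMT1 siRNA replicate 1, 2 or 3 was left out; MRC2 did so too, and also without scrambled replicate 3 or with upper quartile factors (edgeR adjusted p = 0.0622).

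The substrate plasminogen and the serpin SERPINB2 were not detectable at this depth. PLG, the gene of plasminogen, averaged 0.00789 CPM with EHMT1 siRNA and 0.00712 CPM with scrambled siRNA, below the floor of 3 counts, which is 0.0713 to 0.0738 CPM with EHMT1 siRNA and 0.0635 to 0.073 CPM with scrambled siRNA. SERPINB2, whose product can inhibit urokinase, had 0 counts in all 6 libraries, which allows up to that floor. ANXA2, which with S100A10 binds plasminogen and tPA at the cell surface, averaged 323 ± 11.9 CPM with EHMT1 siRNA and 317 ± 24.1 CPM with scrambled siRNA (SD, n = 3 each; named after its value was seen). Its edgeR adjusted p was 0.829. LRP1, the endocytic receptor that clears urokinase bound to serpins, was at 272 ± 10.6 CPM with EHMT1 siRNA and 233 ± 26.6 CPM with scrambled siRNA (named after its value was seen; edgeR adjusted p = 0.0507, and 0.0404 in sense counts).

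In the list of other cathepsins, cystatins and lysosomal sorting genes, 20 of 28 were tested, 2 rose, 4 fell and 14 did not pass, beside the same shares over all genes (5.81% rose, 6.54% fell). The list's median log2 fold change was 0.03. CTSS, a cysteine cathepsin best known from antigen-presenting cells, rose by 0.39 (SE 0.081, edgeR adjusted p = 0.00467) to 35.8 ± 0.744 CPM with EHMT1 siRNA, against 27.3 ± 3.51 CPM with scrambled siRNA (SD, n = 3 each). The 8 macrophage markers, as given above, summed to 1.22 to 1.83 CPM over the 6 libraries. Which cells the CTSS reads came from was not tested. LGMN, the asparaginyl protease that processes cathepsins, fell, with a log2 fold change of -0.26 (edgeR adjusted p = 0.021), as did CTSF and CTSV, at -0.30 and -0.34 (edgeR adjusted p = 0.04 and 0.0465; both named after their values were seen). NAGPA, the enzyme that uncovers the mannose 6-phosphate tag of lysosomal enzymes, fell, with -0.34 (edgeR adjusted p = 0.00966). PSAP, the precursor of the saposins, rose by 0.19 (edgeR adjusted p = 0.0317). Without EHMT1 siRNA replicate 1, 2 or 3, 1 gene of this list rose and 1, 0 and 1 fell; without scrambled replicate 2 or 3, 3 rose, and without scrambled replicate 3, 2 fell. The call of CTSS held with any 1 library left out. NAGPA lost its call when EHMT1 siRNA replicate 2 was left out. LGMN, PSAP, CTSF and CTSV lost theirs when EHMT1 siRNA replicate 1, 2 or 3 was left out and, except PSAP, without scrambled replicate 3 too. CTSF was also lost without scrambled replicate 2 and CTSV without scrambled replicate 1. Both also missed the threshold with upper quartile factors and with limma-voom. CTSV is a close relative of CTSL. Reads mapping to more than 1 place, 1.96% to 2.15% of all reads, were counted for no gene. Any read mapping alike to CTSV and CTSL is thus missing from both. CST3, the secreted cystatin C, averaged 98.6 ± 4.12 CPM with EHMT1 siRNA and 92.0 ± 6.26 CPM with scrambled siRNA (SD, n = 3 each) and did not pass (edgeR adjusted p = 0.34).

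Of 28 other lysosomal genes tested, 3 rose and 0 fell by edgeR, where 5.81% of all genes rose and 6.54% fell. Their median log2 fold change was 0.01. NPC1, a cholesterol exporter of the lysosomal membrane, rose by 0.34 (SE 0.060, edgeR adjusted p = 0.00137), ARSA, arylsulfatase A, by 0.44 (SE 0.095, edgeR adjusted p = 0.00561) and LIPA, lysosomal acid lipase, by 0.26 (SE 0.057, edgeR adjusted p = 0.00683). The call of LIPA was lost without EHMT1 siRNA replicate 2, which left 2 genes that rose. CD63, a tetraspanin of late endosomes, had 0.16 and lay near the threshold (edgeR adjusted p = 0.0626, 0.0492 in sense counts, and 0.0211 with DESeq2). TFEB, a transcription factor of lysosomal genes, averaged 1.49 ± 0.0883 CPM with EHMT1 siRNA and 1.66 ± 0.247 CPM with scrambled siRNA (SD, n = 3 each) and did not pass (edgeR adjusted p = 0.678). Without scrambled replicate 2, 7 of these genes rose and 1 fell.

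AP-1 and ETS factors are known regulators of urokinase and receptor genes in other cell types. Of 12 tested, 2 rose, 2 fell and 8 did not pass, where 5.81% of all genes rose and 6.54% fell. Their median log2 fold change was 0.17. JUND fell to 115 ± 10.3 CPM with EHMT1 siRNA, against 186 ± 16.9 CPM with scrambled siRNA (SD, n = 3 each; log2 fold change -0.69, SE 0.074, edgeR adjusted p = 1.66e-05). FOSL2 (Fra-2) rose by 0.34 (SE 0.057, edgeR adjusted p = 0.000831). ETV4 fell, with -0.28 (edgeR adjusted p = 0.00439), and ATF3 rose by 0.24 (edgeR adjusted p = 0.0342). Without scrambled replicate 2, 4 of these genes rose. With scrambled replicate 3 or EHMT1 siRNA replicate 1, 2 or 3 left out 1 rose, and without EHMT1 siRNA replicate 2, 1 fell. The calls of JUND and FOSL2 held with any 1 library left out. ETV4 lost its call when EHMT1 siRNA replicate 2 was left out. ATF3 lost its call when scrambled replicate 3 or EHMT1 siRNA replicate 1, 2 or 3 was left out.

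**Figure D5:**
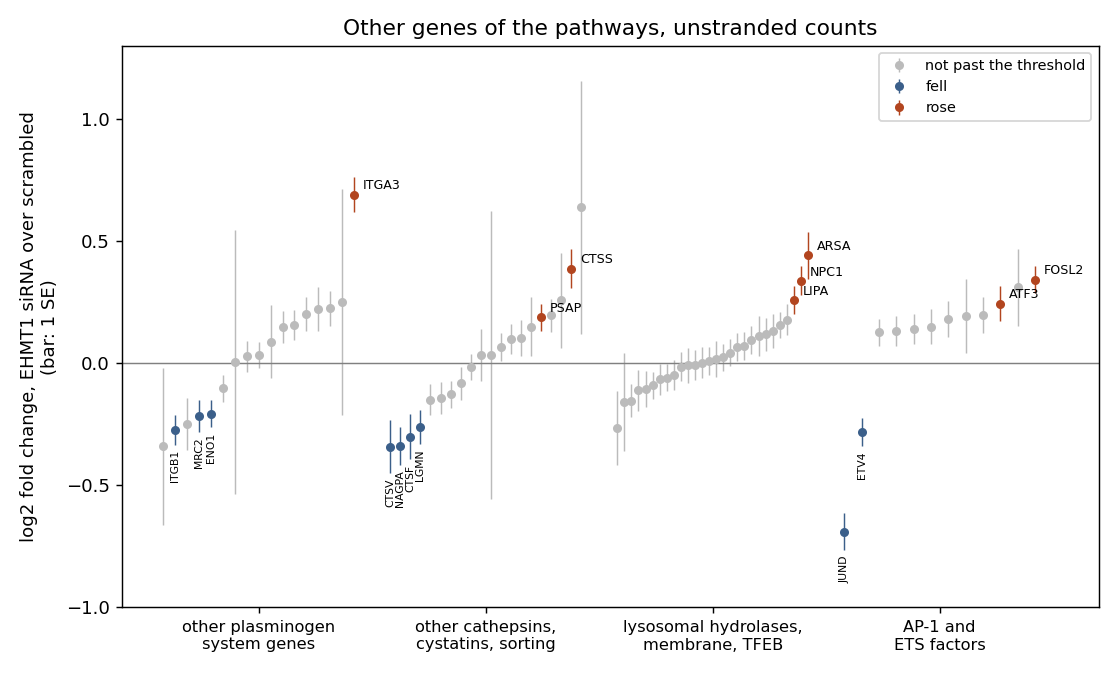
Log2 fold change with 1 SE of each tested gene in the 4 lists of other pathway genes, EHMT1 siRNA over scrambled, ordered by value within a list; red points rose, blue points fell and grey points did not pass the edgeR threshold. ITGA3 is the highest gene of the plasminogen list, and JUND is the lowest called gene of the factors.

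Among the genes whose log2 CPM most resembled that of PLAU over the 6 libraries were TANK (Pearson r = 0.997), DAB2 (r = 0.996), EPAS1 (r = 0.996) and TGFBI (r = 0.995), ranked among 11567 protein-coding genes outside the members. In each of these the EHMT1 siRNA libraries lay above all scrambled ones and scrambled replicate 3 was the lowest, as in PLAU. Among the members, r with PLAU was 0.989 for CTSB, 0.984 for CTSL, 0.965 for SERPINE2, 0.956 for PLAUR and 0.829 for PLAT, against -0.775 for CTSD, 0.186 for CTSK and -0.419 for CTSZ. The 6 points share the division into groups.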

How the data were processed

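Poly-A RNA was sequenced; per the labels' protocols the NEBNext Ultra RNA kit was used. STAR 2.5, HTSeq 0.6.1, DESeq2, bcl2fastq, CASAVA and the build hg19 are listed, without roles, in the submitters' processing notes. The deposited values are raw counts per gene, 1 table per library with an unstranded column and 1 column for each strand, whole numbers with no sign of normalization by the authors. The identifiers are later than hg19 annotations, and 58352 of 61552 are in GENCODE release 29. Reads naming no gene, 20% to 21.2% of all reads, stayed out of library sizes and tests.

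Unstranded counts entered edgeR 4.0.16 (R 4.3.3): low genes were removed by filterByExpr with a minimum count of 10, TMM factors were set, and a robust quasi-likelihood model with group alone was tested by the F test, with Benjamini-Hochberg adjustment over all genes and a threshold of 0.05. An SE is the size of the log2 fold change over the root of its F value. TPM used sense counts and the merged exonic lengths of GENCODE release 29. Gene names came from a table that matched 61399 identifiers. The members, the lists and the rule for named genes were chosen with earlier results of these data known. The rule took all members, EHMT1, 5 fixed genes, up to 4 genes per list by adjusted p, and the 5 genes most like PLAU; 1 of its genes is not reported here and was left out of its list. Replicate pairs differed by more than sampling noise. The chi-square per degree of freedom was 2.98 to 3.36 between EHMT1 siRNA libraries and 8.88 to 21 between scrambled libraries. The p-values measure the spread between these libraries, which may be technical. Alternatives were RLE and upper quartile factors, no filter or 1 CPM in 3 libraries, DESeq2 1.42.0, limma-voom (limma 3.58.1), a replicate number as block, the antisense and the sense column, a threshold of 0.01, and each library left out in turn.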

Additional observations from a re-analysis of the deposited data

How the results depend on the processing

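The number of members past the threshold was 6 under every setting run except the antisense column, where 3 passed, and leaving out 1 library, which gave 5 to 6; 0 members fell. In the antisense column SERPINE2 (0.33), CTSB (0.26) and CTSL (0.19) lost their calls, and CTSK could not be tested. CTSK changed sign without EHMT1 siRNA replicate 3 (-0.00620) and without scrambled replicate 2 (-0.0303), and ranged up to 0.0679 without scrambled replicate 1. EHMT1 passed under all settings run, with -1.38 to -1.25 when 1 library was left out.

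Over all genes, 492 rose and 525 fell at an adjusted p of 0.01, and 90 rose and 87 fell in the antisense column. Leaving out single libraries gave 452 to 1625 rising and 484 to 1923 falling genes; the highest counts came without scrambled replicate 2 and the lowest without EHMT1 siRNA replicate 2. For the plasminogen list, 3 rose and 2 fell with upper quartile factors, 3 rose with the replicate block, and 2 rose in each of DESeq2, limma-voom, the sense column and the fit with no filter on low counts; 0 fell in the antisense column and 1 at the 0.01 threshold; leaving out single libraries gave 1 to 3 rising and 0 to 3 falling genes. For the other cathepsins, 0 rose and 0 fell in the antisense column, 1 rose and 1 fell at 0.01, and 2 fell with upper quartile factors and 2 with limma-voom; leaving out single libraries gave 1 to 3 rising and 0 to 4 falling genes. For the lysosomal list, 5 rose with the replicate block and 0 in the antisense column; leaving out single libraries gave 2 to 7 rising and 0 to 1 falling genes. For the AP-1 and ETS factors, 4 rose with the replicate block, 0 rose and 1 fell in the antisense column, and 1 rose at 0.01; leaving out single libraries gave 1 to 4 rising and 1 to 2 falling genes. The cause of these changes was not tested.

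Same-numbered libraries deviated together with correlations of 0.0555, 0.0154 and 0.025. Libraries of different numbers gave -0.0439 to 0.0185. Whether the numbers pair the libraries is not settled by these values. With the replicate block 1474 genes rose and 1632 fell, against 1084 and 1220 with group alone. Depth limits CTSK and CTSZ, and the overlap with NELFCD limits CTSZ at any depth.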
